A study of Homo sapiens with 2 samples.

Results

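The p53 target and apoptosis genes described here are 40 genes chosen by name for their known roles. The choice was made with earlier results of these data known. Every probe set annotated to these genes alone was read. Of the 40 genes, 37 had such a probe set, 121 probe sets in all out of 54675 on the array. A gene was called measured where the probe set standing for it reached the floor, a signal of 71.6 that is the geometric mean of both arrays' medians, on at least 1 array. By that rule 33 of the 40 genes were measured, out of 12466 measured genes in the whole series. The cells were KYSE-140, an established human esophageal squamous cell carcinoma line, untreated as far as the labels say, and sorted by flow cytometry into CD90+ and CD90- cells. CD90 is a glycoprotein of the cell surface encoded by THY1. Each population gave 1 total RNA sample and 1 Affymetrix U133 Plus 2.0 array, so all values come from 1 line and from 1 sample a population.

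p53 is a transcription factor that is stabilised by DNA damage and other stress and then switches on genes that halt the cell cycle, repair DNA, adjust metabolism or start apoptosis. Apoptosis runs through death receptors at the surface and through the BCL2 family at the mitochondrion, with pro-death and pro-survival members held in balance and the IAP proteins restraining the caspases. In squamous tumours of the esophagus p53 is often altered by mutation, and many of the genes below also answer to other signals.

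p53 binds DNA as a tetramer, usually at paired copies of a 10-base sequence, the p53 half-site consensus, which reads the same on both strands. The RefSeq promoter windows (GRCh38.p14, 250 bases before to 50 after an annotated transcript start) covered 32 of the 40 genes, and a full match to the half-site stood in a window of 7 of them (21.9%), against 8.06% of all 27305 genes with a window. Counted by window, because genes differ in their number of starts, this was 7 of 54 (13.0%) against 6.64%. A match is a description of letters and not a measured site. The stretches below show the matches of the 6 such genes that had a probe set, with capitals marking the half-sites. Except in DDB2 each holds 1 full match only, not the paired copies at which p53 usually binds. Sites outside the windows were not searched. In DDB2 there were 2 half-sites separated by 1 base, beginning 5 bases past the start, and DDB2 was 1 of 10 genes among the 27305 with a pair no more than 13 bases apart. The single half-sites began 49 bases before the start in SESN1, 34 in AEN, 73 in BAK1, 122 in FAS and 132 in PLK2.
DDB2 (chr11:47214975-47215004, plus strand): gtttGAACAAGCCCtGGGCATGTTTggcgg
SESN1 (chr6:109009018-109009047, minus strand): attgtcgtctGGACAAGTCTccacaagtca
AEN (chr15:88621296-88621325, plus strand): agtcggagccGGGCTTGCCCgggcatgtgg
BAK1 (chr6:33580330-33580359, minus strand): aaagtgggcgGGACATGCTCctgggcctgg
FAS (chr10:88991299-88991328, plus strand): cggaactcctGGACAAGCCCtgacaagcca
PLK2 (chr5:58460199-58460228, minus strand): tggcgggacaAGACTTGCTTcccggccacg

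The sort and the cell type were checked first. THY1 read higher in CD90+ cells on all 3 of its probe sets, at 293 against 78.9 on the one that stands for the gene. The squamous keratins KRT5 (19357 against 19208) and KRT14 (5323 against 3700) and the desmosomal cadherin DSG3 (2898 against 2036) were well above the floor in both populations. Of markers of other cells, 5 of 7 fibroblast genes, 5 of 6 leukocyte genes and 3 of 4 endothelial genes did not reach the floor in either population. The exceptions were COL1A1 (2125 against 1240) and PDGFRA (107 on each) among fibroblast genes, ITGAM (72.4 against 35.1) among leukocyte genes and PECAM1 (98.5 against 70.9) among endothelial genes. With 1 array a population no spread between samples can be estimated, so no difference below has a test, and precision is limited by the number of arrays.

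None of the 33 measured genes was 2-fold apart in the probe set that stands for it, where 2.47% of all measured genes reached 2-fold on the higher side and 1.75% on the lower side in CD90+ cells. Without a floor 2 of 37 members were at least 2-fold higher, FAS and TNFRSF10C, both dim. Under that setting 20.2% of all genes were 2-fold apart in either direction. Without shared probe set classes 1 of 26 members, MDM2, was 2-fold lower, where 4.28% of all genes were 2-fold apart in either direction. At 1.5-fold 3 of the 33 were higher (background 7.37%) and 1 was lower (background 6.76%). The log2 ratios, CD90+ over CD90-, ran from -0.63 to 0.79, with 18 above and 15 below 0. Their median was 0.0093, beside 0.010 over all measured genes, and the median size of the ratio regardless of sign was 0.33, beside 0.22. With the floor applied, the counts past 2-fold and 1.5-fold are near the background, and the ratios were no smaller than over all genes. The members beyond 1.5-fold were GADD45B, TNFRSF10B and PHLDA3 on the higher side and TP53INP1 on the lower side.

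**Figure D1:**
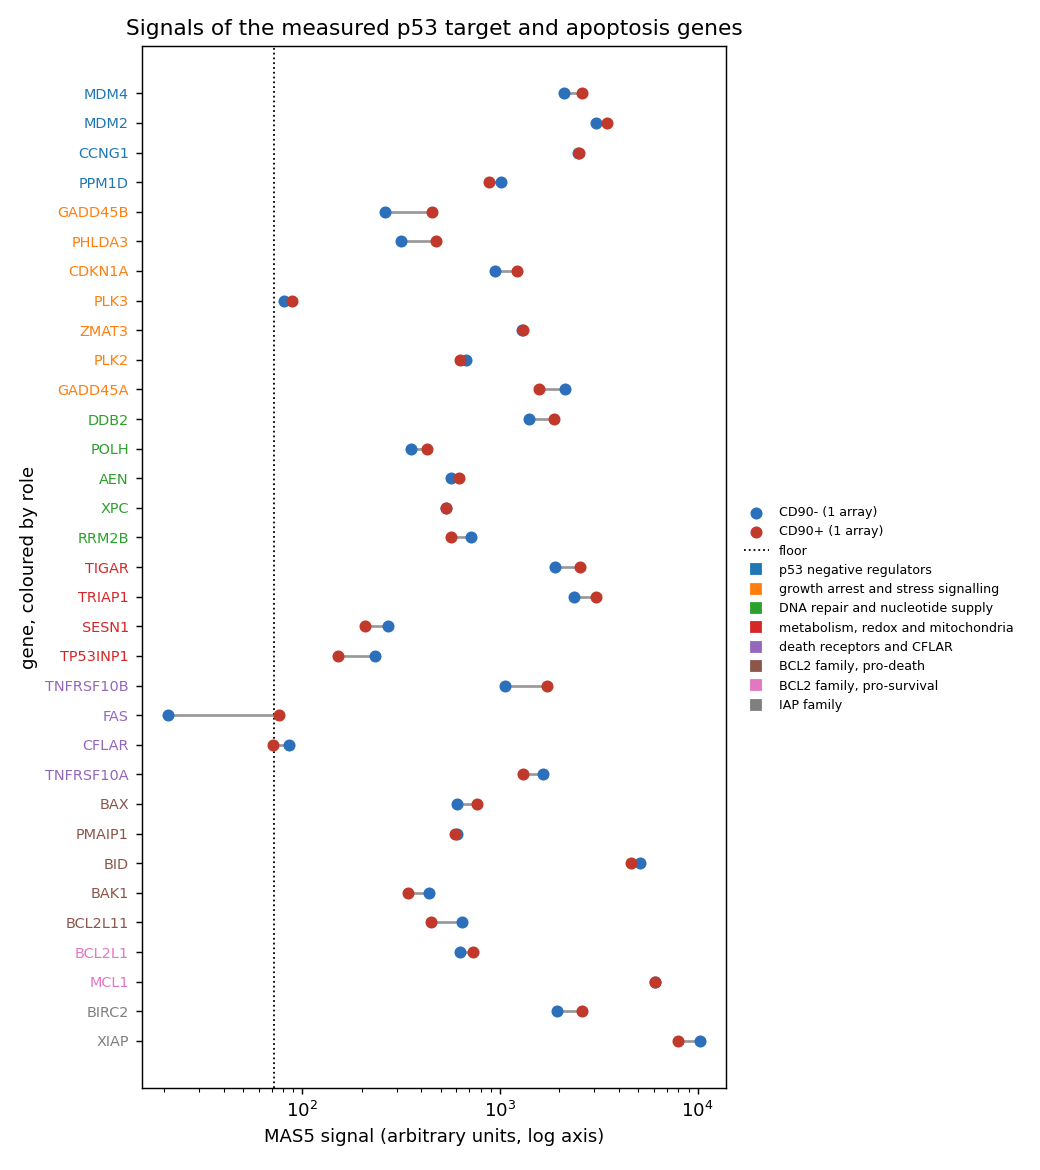
MAS5 signal (log axis) of the probe set that stands for each of the 33 measured genes, in CD90+ cells (red) and CD90- cells (blue), 1 array each, with gene names coloured by role and the floor of 71.6 as a dotted line. Most pairs of points lie close together; FAS is the gene with the CD90- point far under the floor, at 20.9.

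Different probe sets of a gene are the nearest thing to a repeated reading, and in several members they disagreed in sign. Over the 18 measured members with more than 1 measured probe set, the pooled SD of log2 ratios within a gene was 0.35 (67 probe sets), beside 0.31 over 6188 genes in the series. All measured probe sets lay above 0 in 5 of the 18 members and below 0 in 3, and 10 had probe sets on both sides. The same sign counts were not made over all genes, so they do not set these members apart. The spread within a gene covers array noise and differences between transcripts and probes, not the spread between sorts. Over all 83 measured probe sets of the members 41 were above 0 and 42 below, and 1, of MDM2, was 2-fold apart, where the share over all measured probe sets was 3.54%. Where a probe set reached the floor on 1 array only, setting the other side to the floor fixed its sign. Counts of signs here and below include such probe sets.

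**Figure D2:**
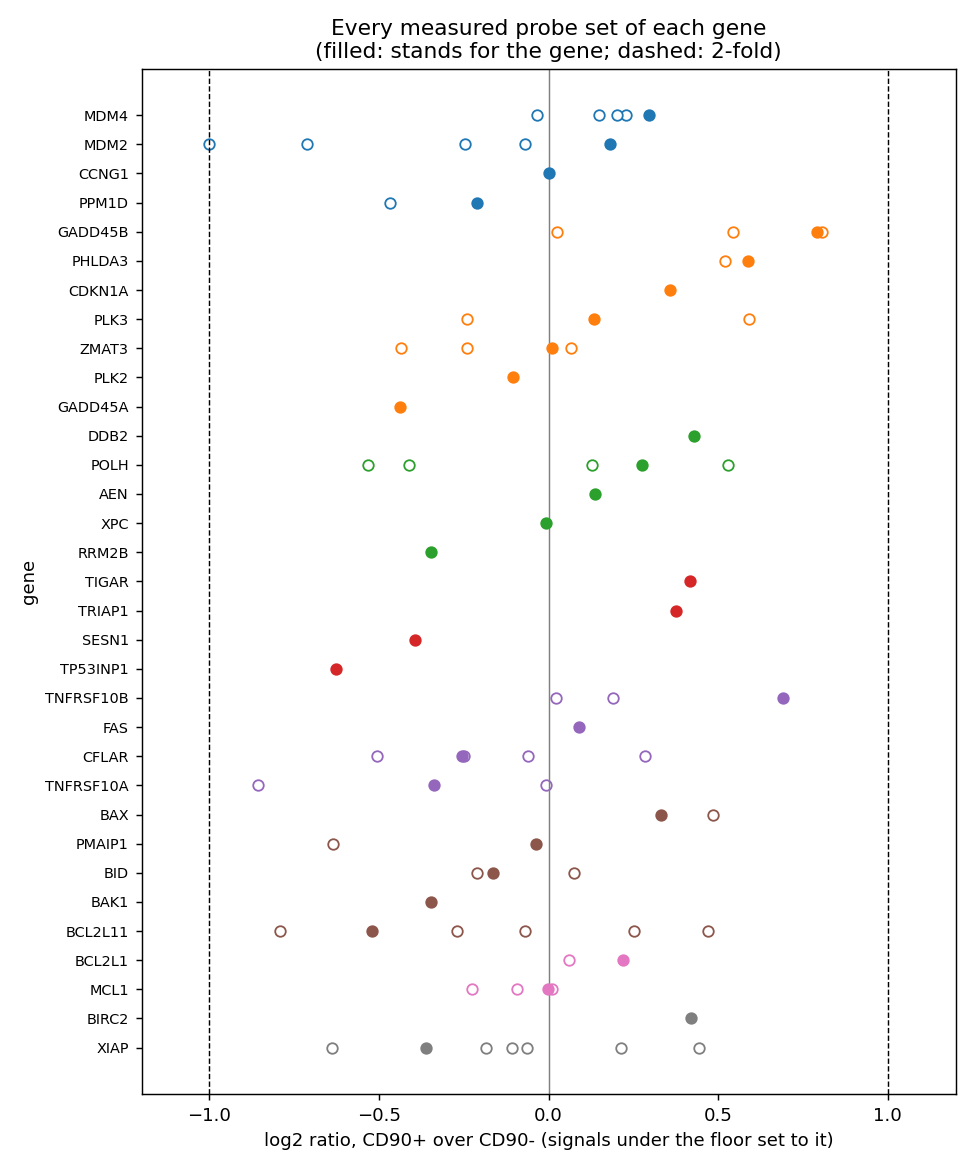
Log2 ratio, CD90+ over CD90-, of every measured probe set of the 33 measured genes, with the probe set that stands for the gene filled and others open. Dashed lines mark 2-fold. MDM2, BCL2L11, POLH and XIAP have points on both sides of 0, while all 4 points of GADD45B and both of PHLDA3 are above it.

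The inhibitors of p53 that are themselves its targets showed no common direction. MDM2, the ubiquitin ligase that marks p53 for degradation, read 3482 in CD90+ and 3070 in CD90- cells on the probe set that stands for it, a log2 ratio of 0.18. Its other 4 measured probe sets read lower in CD90+ cells: 1557 against 1632, 140 against 165, 105 against 210, and 71.0 against 117 with the CD90+ side just under the floor. The third of these is the probe set with a 2.00-fold difference, and it reads much nearer the floor than the one that stands for the gene. MDM2 thus differs in sign between a bright probe set and 4 others, and no direction can be given for the gene.

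MDM4, the partner of MDM2 that blocks the activating domain of p53, read 2593 against 2111 (log2 ratio 0.30), with 4 of 5 measured probe sets above 0. Its 50 nearest measured neighbours on chromosome 1 had the same median log2 ratio, 0.30. PPM1D, or WIP1, a phosphatase that switches the p53 response off, read 877 against 1014 (log2 ratio -0.21). CCNG1, cyclin G1, was equal, at 2498 against 2496.

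Among the genes of growth arrest and stress signalling, GADD45B stood highest. GADD45B, a stress sensor that binds the kinase MTK1 and feeds p38 and JNK signalling, read 454 in CD90+ and 262 in CD90- cells, 1.73-fold higher with a log2 ratio of 0.79. Its other probe sets read 263 against 150, 127 against 87.1 and 83.7 against 82.2. All 4 were above 0, the last by 0.026 only. The neighbouring genes of GADD45B on chromosome 19 had a median log2 ratio of -0.23, in the opposite direction.

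GADD45A, the better known p53 target of the same family, went the other way, at 1578 against 2138 (log2 ratio -0.44) on its single probe set. The related genes GADD45A and GADD45B therefore had ratios of opposite sign. PHLDA3, which competes with AKT for membrane lipids and so dampens AKT signalling, read 475 against 316 and 447 against 311 on its probe sets, log2 ratios of 0.59 and 0.52. Both readings of PHLDA3 are at or just below 1.5-fold, and its neighbours on chromosome 1 had a median of 0.25.

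CDKN1A, which encodes the cyclin-dependent kinase inhibitor p21 and is the most widely used readout of p53 activity, read 1213 against 946, a log2 ratio of 0.36. That is 28.2% higher in CD90+ cells and about the size of the pooled SD between probe sets. ZMAT3, an RNA-binding zinc finger protein, read 1308 against 1299, with 4 measured probe sets from -0.44 to 0.067. The polo-like kinases PLK2 (627 against 675) and PLK3 (88.6 against 80.8) differed little. GDF15, a secreted stress cytokine, was not measured by the rule, because its probe sets outside the _x_at class stayed under the floor. Its _x_at probe set, which may also bind related transcripts, read 222 against 120 (log2 ratio 0.89).

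Handling or stress of the cells can move several of these genes, so the immediate early and ATF4 target genes are given beside them. Of 11 measured immediate early and heat shock genes 0 were 2-fold apart, where 2.47% of all measured genes were 2-fold higher and 1.75% lower. The median log2 ratio of the 11 was 0.12, with a range from -0.62 to 0.54. Of 9 measured ATF4 targets 1 was at least 2-fold higher, against the same 2.47% of all measured genes. It was the mTORC1 inhibitor DDIT4, at 2101 against 1047 (2.01-fold), and the median of the 9 was 0.054. The part of these responses in the ratios of GADD45B and PHLDA3 was not tested.

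The DNA repair genes lay between -0.35 and 0.43. DDB2, the damage-recognition protein of nucleotide excision repair and the gene with the paired half-sites shown above, had the highest ratio of the 5, at 1881 against 1396 (log2 ratio 0.43). XPC, its partner in recognising damage, was level at 532 against 534. RRM2B, the p53-inducible subunit of ribonucleotide reductase, read 563 against 715 (log2 ratio -0.35). POLH, the polymerase that copies past UV lesions, read 427 against 353, but its 5 measured probe sets ran from -0.53 to 0.53. The nuclease AEN read 619 against 563. DDB2 and RRM2B each rest on 1 probe set and on log2 ratios of opposite sign.

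The genes of metabolism, redox control and mitochondria split evenly, with 2 higher and 2 lower of 4 measured. TIGAR, a phosphatase that lowers fructose-2,6-bisphosphate and turns glucose toward the pentose phosphate pathway, read 2534 against 1898 (log2 ratio 0.42), among neighbours on chromosome 12 with a median of 0.32. TRIAP1, which supplies lipid to the mitochondrial membrane and restrains apoptosome assembly, read 3065 against 2363 (log2 ratio 0.37). TP53INP1, an inducer of autophagy and cell death, gave the lowest ratio of the 33 measured members, 151 against 234, which is 1.54-fold lower in CD90+ cells (log2 ratio -0.63). SESN1, a sestrin that holds back mTORC1, read 207 against 271 (log2 ratio -0.39). The 3 probe sets of SPATA18 and TP53I3, both linked to mitochondrial damage or oxidative stress, stayed under the floor on both arrays.

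**Figure D3:**
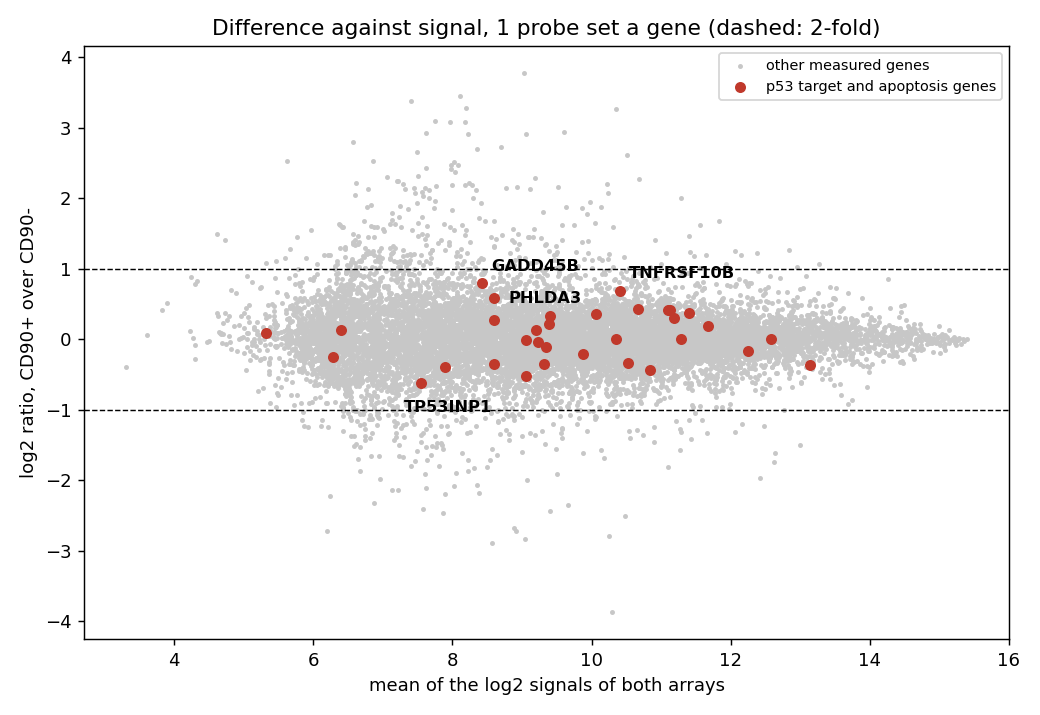
Log2 ratio, CD90+ over CD90-, against the mean log2 signal of both arrays for the 12466 measured genes (grey) and the 33 measured p53 target and apoptosis genes (red), 1 probe set a gene; dashed lines mark 2-fold. The members, named where beyond 1.5-fold, lie inside the dashed lines across the range of signal.

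The death receptors for the ligand TRAIL differed in sign. TNFRSF10B, or DR5, a TRAIL receptor induced by p53, read 1722 in CD90+ and 1066 in CD90- cells, 1.61-fold higher with a log2 ratio of 0.69. Its other measured probe sets read 81.7 against 68.7 and 72.8 against 19.0, both close to the floor on the brighter side. TNFRSF10A, or DR4, the other signalling TRAIL receptor, read 1305 against 1648 (log2 ratio -0.34), and its further probe sets read 236 against 428 and 396 against 399. All 3 measured probe sets of TNFRSF10B were above 0 and all 3 of TNFRSF10A below it. The dim ones of TNFRSF10B reached the floor in CD90+ cells only, which fixed their sign, so the direction of TNFRSF10B rests on 1 probe set. Its remaining probe set, under the floor on both arrays, read 37.1 against 66.5. The receptor genes lie in 1 cluster on chromosome 8, and the median log2 ratio of the neighbouring genes was -0.11 for each.

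TNFRSF10C, a decoy TRAIL receptor without a death domain, stayed under the floor on its 4 probe sets of a single symbol. FAS, the receptor for FAS ligand, read 76.2 against 20.9 on 1 of its 5 probe sets and stayed under the floor on the others. With the floor applied FAS was at least 1.06-fold higher in CD90+ cells. CFLAR, or c-FLIP, which blocks caspase-8 at the receptor, is represented by a probe set at 71.3 against 85.5. Its brighter _x_at probe sets read 423 against 441 and 305 against 362, and 2 dim ones read 87.1 against 58.6 and 52.7 against 102. Of the 5 measured probe sets of CFLAR 4 were below 0 and 1 above. The 2 dim ones and the one that represents the gene reached the floor on 1 array only, which fixed their signs.

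The pro-death members of the BCL2 family had log2 ratios from -0.52 to 0.33, with 4 of 5 measured genes below 0, and their probe sets did not share a sign in BCL2L11 and BID. BCL2L11, or BIM, a BH3-only protein that binds all the pro-survival relatives, read 445 against 639 (log2 ratio -0.52). Its 6 measured probe sets, which match different transcripts, ran from -0.79 (230 against 397) to 0.47 (202 against 146). BAK1, an effector that opens the outer mitochondrial membrane, read 343 against 435 (log2 ratio -0.35).

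BID, which carries the death receptor signal to the mitochondrion, read 4583 against 5138 (log2 ratio -0.16), with 1 of 3 probe sets above 0. PMAIP1, or NOXA, a BH3-only partner of MCL1, read 591 against 607 on one probe set and 346 against 538 on the other, and its neighbours on chromosome 18 had a median log2 ratio of -0.58. BAX, the second effector and a p53 target, was the exception, at 761 against 605 and 736 against 526, log2 ratios of 0.33 and 0.49. The effectors BAX and BAK1 therefore had ratios of opposite sign and similar size.

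The pro-survival members had log2 ratios of -0.00097 and 0.22. MCL1, a short-lived protein on which many tumour cells depend, read 6097 against 6101, with 4 measured probe sets from -0.22 to 0.0089. BCL2L1, which encodes BCL-XL, read 726 against 624 and 230 against 220. Of the IAP genes, BIRC2, or cIAP1, a ubiquitin ligase of TNF receptor complexes, read 2588 against 1934 (log2 ratio 0.42). XIAP, which binds and inhibits caspases directly, read 7988 against 10272 (log2 ratio -0.36), with 2 of 7 measured probe sets above 0. BTG2, FDXR and BBC3 lacked a probe set annotated to them alone and are not counted among the measured genes. A probe set annotated to BBC3 together with the microRNA genes MIR3190 and MIR3191 read 86.2 in CD90+ and 83.7 in CD90- cells.

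The 6 genes whose half-sites are shown above did not share a direction. DDB2, AEN and FAS had ratios above 0 and SESN1, BAK1 and PLK2 below, from -0.39 in SESN1 to 0.43 in DDB2. FAS reached the floor in CD90+ cells only, so its ratio with the floor applied could only be above 0.

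Other genes of the pathway came from lists that do not overlap with the members. These lists too were chosen with earlier results of these data known, so their counts are no independent support for a direction. Among 16 measured genes of the p53 family and its regulators 0 were beyond 1.5-fold (against 7.37% of all measured genes higher and 6.76% lower). The median log2 ratio of the 16 was -0.039. The 2 brightest, the deubiquitinase USP7 (4668 against 4828) and the acetyltransferase CREBBP (4190 against 3754), differed by less than the pooled SD between probe sets. Of 20 further p53 target genes 1 was at least 2-fold higher (against 2.47% of all measured genes) and 0 were 2-fold lower (against 1.75%). At 1.5-fold 6 were higher (against 7.37%) and 0 lower (against 6.76%), and the median was 0.050. The 2-fold gene was TRIM22, an antiviral ubiquitin ligase that interferon also induces, at 322 against 103 (3.13-fold). The other 5, singled out after their values were seen, were the tetraspanin CD82 (381 against 199), TP53AIP1 (168 against 91.9), CMBL (2561 against 1410, but 6280 against 5947 on its brighter _x_at probe set), the autophagy gene DRAM1 (170 against 101) and the ceramidase ACER2 (199 against 118).

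Of 23 further apoptosis genes 1 was at least 2-fold lower (against 1.75% of all measured genes) and 0 were 2-fold higher (against 2.47%). At 1.5-fold 1 was higher (against 7.37%) and 2 were lower (against 6.76%), and the median was -0.11. The 2-fold gene was BCL2, the founding pro-survival member, at 211 against 497 (2.35-fold lower, log2 ratio -1.23). A second measured probe set of BCL2 read 118 against 72.1 (log2 ratio 0.72), so the sign is not shared, and the neighbours of BCL2 on chromosome 18 had a median of -0.52. The other gene at least 1.5-fold lower, BIK, a BH3-only protein, read 586 against 940. TNFSF10, which encodes TRAIL, the ligand of the receptors above, read 1473 against 960 (1.53-fold higher), and its other probe sets read 1019 against 720 and 1742 against 1220. FADD, the adaptor that joins those receptors to caspase-8, read 9171 against 6541 (log2 ratio 0.49), and CASP8 itself 937 against 1046 (log2 ratio -0.16). BIK, TNFSF10, FADD and CASP8 were singled out after the values were seen.

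**Figure D4:**
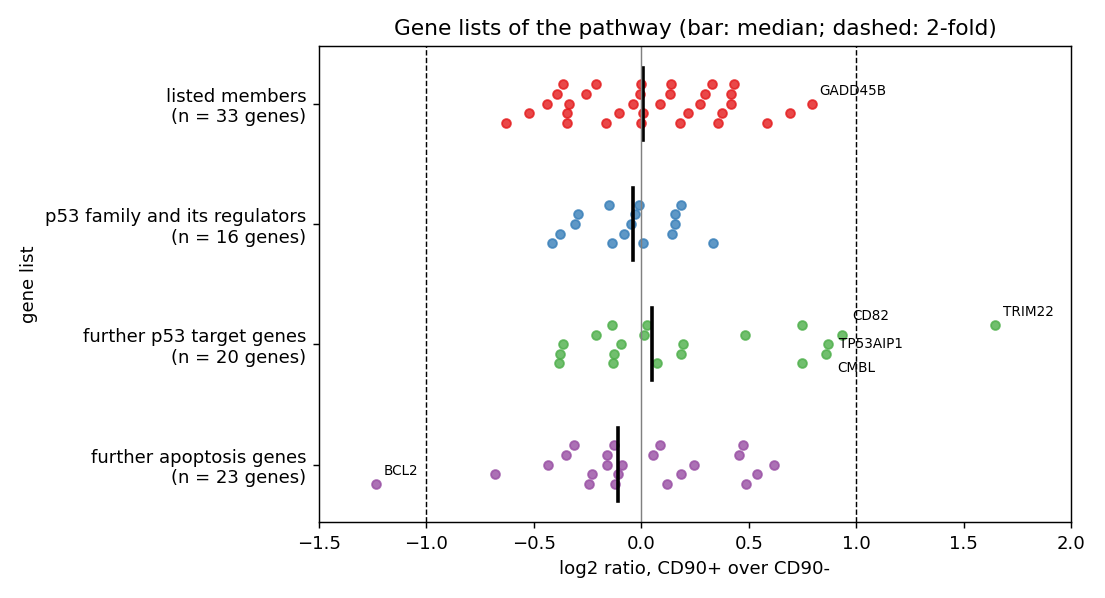
Log2 ratio, CD90+ over CD90-, of each measured gene (points) in the listed p53 target and apoptosis genes and in 3 further lists, with the median of each list as a bar and 2-fold as dashed lines. TRIM22 and BCL2 are the points beyond 2-fold, at 1.65 and -1.23.

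The named members were read again under 11 other settings. TP53INP1, GADD45A, DDB2 and TRIAP1 have 1 measured probe set each, so settings that swap or average probe sets could not move them. Among genes with several, the ratio of BID ran from -0.18 to 0.076 and turned sign, that of TNFRSF10A from -0.40 to -0.0078 and that of XIAP from -0.39 to -0.064. The ratios of GADD45B (0.026 to 0.82) and TNFRSF10B (0.023 to 0.70) were smallest by the least changed probe set. For MDM2 the ratio ran from 0.19 to a value 2.00-fold lower, the latter with shared probe set classes left out.

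**Figure D5:**
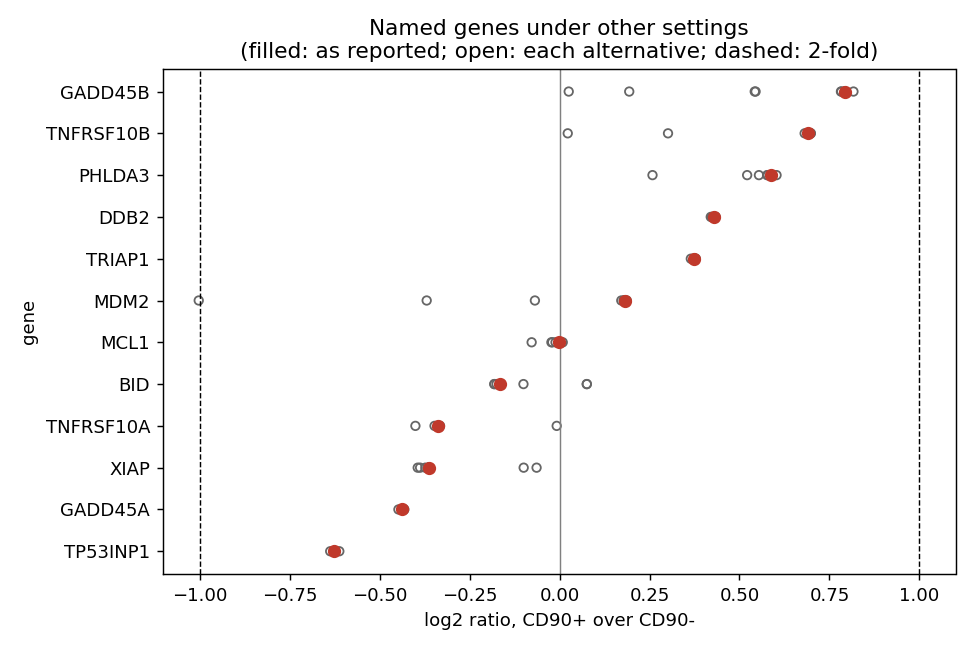
Log2 ratio, CD90+ over CD90-, of 12 named genes as reported (filled) and under each of 11 other settings (open), with 2-fold as dashed lines. GADD45B, TNFRSF10B and MDM2 have open points far from the filled one, and MDM2 is the gene with a point past the 2-fold line.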

How the data were processed

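The data are 2 RNA samples, 1 of CD90+ and 1 of CD90- cells, with 1 array each. The authors processed the scans with MAS5, per the submitters' processing notes, which gives 1 signal from a probe set's perfect-match and mismatch probes; its settings were not stated. The deposited values are linear signal intensities, and both arrays have a trimmed mean of 500.1 (2 to 98%), so they were already scaled. Mismatch subtraction makes ratios of dim probe sets noisy. Names came from the platform annotation, with symbols from the RefSeq gene table of GRCh38.p14; those with several symbols were not named. Signals under the floor of 71.6 were set to it before taking log2 ratios. The probe set with the highest mean log2 signal stood for a gene, _x_at sets only where there was no other. Genes were counted at 2-fold and 1.5-fold. Values for neighbours are medians over the 50 nearest genes by start position that reached the floor on both arrays.

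The members and lists were chosen with earlier results of these data known. Named members were those beyond 1.5-fold, the brightest measured of each role and those with a probe set 2-fold apart; the rest are given to account for all. Of other lists, the genes beyond 2-fold or the 2 brightest were named. The counting at 2-fold was tested on simulated data, with planted changes larger than 2-fold in bright genes only. All probe sets of a gene were moved together there, so it does not cover small ratios, dim genes or probe sets that disagree. The work used pandas 2.3.3, statsmodels 0.14.6 and numpy 2.4.6 in Python 3.11.15.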

Additional observations from a re-analysis of the deposited data

How the results depend on the processing

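The alternatives were leaving out the floor, setting it at the 25th or at the 75th percentile, quantile normalization, a median ratio set to 0, loess on signal, the mean over probe sets, the least changed probe set, no _x_at, _s_at or _a_at classes, a filter on mean signal and, added after the data were seen, the _x_at class allowed. Without a floor or with the 25th percentile as floor, 2 members were at least 2-fold higher, FAS, under 71.6 in CD90- cells, and TNFRSF10C, under it on both arrays, and the median log2 ratio of the 37 members then read was 0.13. The share of all genes 2-fold apart in either direction was 20.2% without a floor and 11.4% with the 25th percentile. Without the shared probe set classes 1 of 26 members, MDM2, was at least 2-fold lower, beside 4.28% of all genes 2-fold apart in either direction. In all other settings both 2-fold counts were 0, and the median lay within 0.1 of the reported value. Of 131 ratios of named members under other settings 125 moved by less than the pooled SD between probe sets and 6 by more, in GADD45B, TNFRSF10B and MDM2. This count is not a measure of stability. Leaving out the floor, the 25th percentile, the filter on mean signal and the _x_at class each left all these ratios as reported. BID turned sign within the pooled SD, and TNFRSF10A reached -0.0078. No paired analysis was possible because each population has 1 sample. Signal near the floor limits FAS, CFLAR and PLK3, and no detection calls were used.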
